A study of Mus musculus with 12 samples.

Results

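Plexins are transmembrane receptors for semaphorins, and neuropilins are co-receptors that bind class 3 semaphorins and vascular endothelial growth factors. Counts were examined here for 8 genes of this system in mouse macrophages, the plexins Plxnd1, Plxna1, Plxnb2 and Plxnc1, the transmembrane semaphorins Sema4a and Sema4d, and the neuropilins Nrp1 and Nrp2. They were taken by symbol, all 8 were found among the 12339 genes of the deposited table, and all 8 passed the low-count filter. Plxnd1 was picked because it was lower in meKO than in wild type (WT) on chow, so its values in comparisons that use the chow libraries are given as a description, and the genotype difference on chow is a description for all 8 genes. The cells were peritoneal macrophages elicited with thioglycolate, an irritant that draws monocytes into the peritoneum. The 4 groups, with 3 libraries each, were WT on chow, WT on a high-fat Western diet (HFD), meKO on chow and meKO on HFD. Since the title of the series refers to protein kinase C epsilon in myeloid cells, meKO is taken as the myeloid knockout of Prkce, its gene. Which recombinase line was used is not in the labels. Mice of both genotypes and both diets had received AAV8PCSK9 at 8 weeks of age, which strips hepatocytes of the LDL receptor, and only its combination with HFD is described as raising cholesterol. Chow here therefore means treated mice without the fat load. The interval recorded for all 12 libraries is 4 weeks after the AAV8PCSK9 injection. The labels describe more mice than the 12 libraries used here and do not tie each library to a single mouse, so p-values measure the spread between these libraries.

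Plexins carry a GTPase-activating domain in their cytoplasmic part that acts on small Ras-family GTPases, and ligand binding typically loosens integrin adhesion and reorganises actin. Class 3 semaphorins are secreted and mostly signal through a neuropilin paired with an A-type plexin, while Sema3e can bind Plxnd1 directly. Class 4 semaphorins are membrane-bound and can signal between cells in contact, with Sema4d binding plexins of the B type. In macrophages the system is known for effects on migration, retention in tissue and inflammatory signalling.

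Library totals ran from 25844958 to 37282772 counts. The targeted gene Prkce stood between 2.01 and 4.44 CPM (counts relative to library size, scaled with TMM factors) in the 6 WT libraries and between 0.95 and 1.78 CPM in the 6 meKO libraries, so the groups did not overlap. The 8 macrophage markers summed to between 22100 and 59400 CPM in 11 libraries. In meKO chow replicate 2 they summed to 5690 CPM, with the lysozyme gene Lyz2 at 69.3 CPM. Lyz2 stood at 30500 to 53800 CPM in the 6 WT libraries and at 16300 to 21300 CPM in the remaining meKO libraries. As Lyz2 makes up most of the sum elsewhere, the low sum does not show that the other markers were low. WT chow replicates 1 and 2 stood apart in another way that bears on long transcripts. In these 2 libraries counts rose with transcript length, with Spearman's rho across genes of 0.60 and 0.65 between length and the deviation from the mean of all libraries, against -0.43 to 0.12 in the other 10. The plexins and Nrp2 have longest transcripts of 6497 to 9034 nucleotides (nt), against a median of 3367.5 nt over the genes with a length, so values are also given after a smooth correction of each library for length and GC content. After that correction the trends lay between -0.04 and 0.04. Whether the trend came from the RNA or from the cells was not tested.

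In GENCODE M21 (assembly GRCm38, matching the mm10 build in the submitters' processing notes), Plxnd1 spans chr6:115954811-115995005 on the minus strand, with 36 exon blocks. Plxna1 lies on the same chromosome at chr6:89316314-89362620, also on the minus strand. An antisense transcript, Gm26811, covers 970 bases of its exons, or 10.7% of their length. As the strand setting of the counting is not given in the sources used here, reads of that stretch cannot be assigned to Plxna1 with certainty. No exon of another GENCODE gene overlapped those of Plxnd1, Plxnb2, Sema4d or Nrp2. Upstream sequence from RefSeq (GRCm38.p6) was found for 7 of the 8 genes, Plxna1 being the exception. The stretch below is shown because Plxnd1 is the gene with the largest genotype difference on chow, and the Sema4a window because Sema4a kept a diet difference after the length correction.

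Plxnd1, chr6:115995041-115995068, minus strand, 63 to 36 bases before the RefSeq start (the RefSeq gene record extends further, to 115995339): GGGCGTGGcccggggcgaaaGGGCGTGG

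Sema4a, chr3:88461183-88461432, minus strand, 250 bases before the first of its 4 RefSeq starts: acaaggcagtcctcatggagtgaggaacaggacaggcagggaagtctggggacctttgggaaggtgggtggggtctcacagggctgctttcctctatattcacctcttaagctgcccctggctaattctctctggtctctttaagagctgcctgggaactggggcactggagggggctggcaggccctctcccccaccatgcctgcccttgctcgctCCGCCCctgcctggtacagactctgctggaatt

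Capitals in the Plxnd1 stretch mark GGGCGTGG, a motif chosen after the window was read, whose reverse complement is a CACCC-type element of the kind Krüppel-like factors bind. The 250 bases before the Plxnd1 start hold 3 copies of it on either strand. At least 1 copy is present in 4.79% of the 32851 RefSeq windows of this length, and 3 or more copies in 0.0944%. Capitals in the Sema4a window mark a GC box (GGGCGG or its reverse complement), which 32.7% of all windows hold on either strand. Of GC boxes the Plxnd1 window has 1, the Plxnc1 window 4 and the Nrp2 window 5, and the 2 motifs share no letters in the stretches shown. The Plxnd1 window has 16 CpG dinucleotides and the Nrp2 window 32, while the Sema4a window has 2. None of the windows of the 7 genes holds GAGGAAGT, a core of the kind bound by the myeloid factor PU.1, which 2.44% of all windows hold. These are letter matches in windows chosen by annotation, and nothing in the counts bears on binding there.

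Levels were compared between genes per transcript length, as mean RPKM ± SD over the 12 libraries (n = 12). Nrp1 had the highest level at 107 ± 18.5 RPKM. Its lowest library, at 90.5 RPKM, lay above the highest value of any of the other 7. The length used for Nrp1 was 3645 nt, while its GENCODE exons cover 9785 bases, so this gap depends on the length used. Plxnb2 followed at 36.2 ± 10.2 RPKM and Sema4d at 27.9 ± 9.09 RPKM. Plxnc1 at 17.8 ± 4.21 RPKM, Plxna1 at 12.9 ± 4.46, Plxnd1 at 12.6 ± 5.94 and Sema4a at 11.4 ± 2.56 came next, and Nrp2 was lowest at 6.23 ± 1.97 RPKM. From Plxnb2 down, the ranges of neighbours in this order overlapped. The system in these macrophages thus held both neuropilins, plexins of all 4 types and class 4 ligands, with Nrp1 the most abundant of the 8 genes by these lengths. Counts per library ran from 590 for Sema4a to 17561 for Nrp1, so counting error was small beside the spread between libraries.

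**Figure D1:**
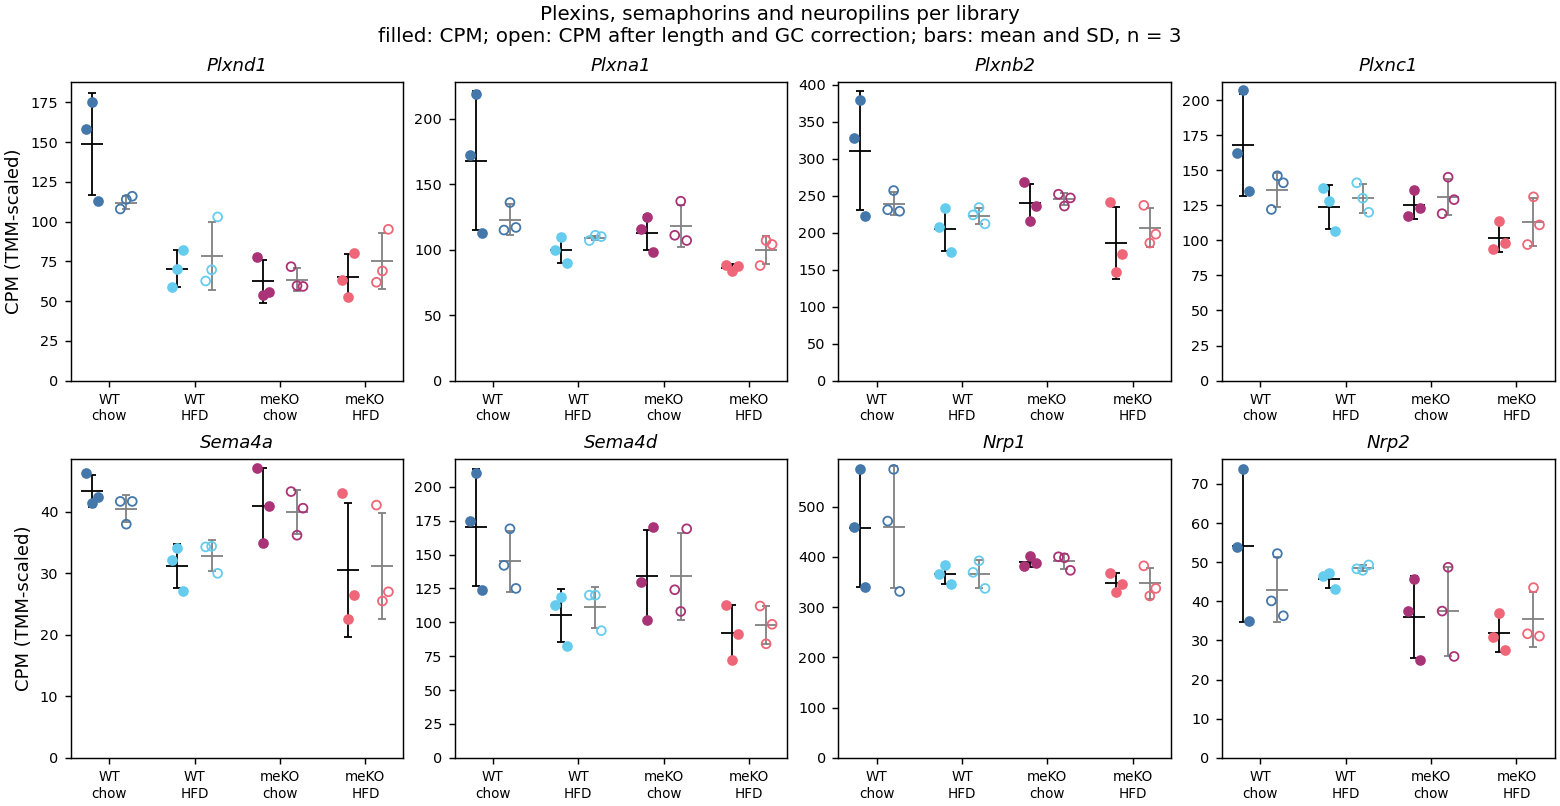
CPM (y axis, TMM-scaled, from 0) of the 8 genes in the 4 groups (x axis), where filled points are single libraries, open points the same libraries after length and GC correction, and bars the mean and SD (n = 3). Plxnd1 in WT chow, at 113 to 175 CPM, lies above all other groups, which span 52.7 to 82 CPM, and the filled WT chow points of the other plexins spread more widely than the open ones.

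Plxnd1, the receptor of Sema3e best known for guiding endothelial cells, was high in a single group. The 3 WT chow libraries held 158, 175 and 113 CPM. Those of meKO chow held 77.9, 53.8 and 55.5 CPM, so the 2 chow groups did not overlap, as for 8.28% of all genes in the lower direction (7.42% after the length correction below). On HFD the WT libraries held 58.8, 70.3 and 82 CPM and the meKO libraries 63.4, 52.7 and 80.4 CPM, overlapping with meKO chow. On chow the means were 149 ± 32.2 CPM for WT and 62.4 ± 13.5 CPM for meKO, and on HFD 70.4 ± 11.6 CPM for WT and 65.5 ± 14 CPM for meKO (SD, n = 3). The fitted genotype difference on chow, the value that chose the gene, was -1.25 ± 0.20 (log2 fold change ± SE), with an edgeR quasi-likelihood adjusted p of 0.0484, just inside the threshold of 0.05. The next of the 8 genes by adjusted p was Plxna1 at 0.135. In that comparison 0.0486% of all genes and 0.377% of genes of at least 6000 nt were called lower. Nothing is read from the count of 1 of 8. In these bulk samples, fewer cells of a type and less RNA per cell cannot be told apart.

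The level of Plxnd1 in WT chow remained apart after the length and GC correction, though the gap was smaller. On chow the corrected values were 108, 114 and 116 CPM for WT and 71.7, 59.7 and 59.3 CPM for meKO. On HFD they were 62.7, 69.7 and 103 CPM for WT and 61.9, 69 and 95.2 CPM for meKO. The WT chow libraries, which had spread over 113 to 175 CPM, now lay within 108 to 116 CPM and still above every other library. The corrected genotype difference on chow was -0.82 ± 0.18. Without WT chow replicates 1 and 2 together, an alternative chosen after seeing the data, the uncorrected difference was -0.85. Without meKO chow replicate 2, the library low in Lyz2, it was -1.14. The edgeR adjusted p was 0.131 after correction, and 0.163, 0.237 and 0.231 without WT chow replicate 1, WT chow replicate 2 or meKO chow replicate 2. Of 21 alternatives 9 passed, with adjusted p from 6.97e-06 to 1. Endothelial cells are a known site of Plxnd1 expression. Only 2 of 7 endothelial markers were in the table, and on chow their sum ran from 9.65 to 17 CPM for WT and from 11.9 to 15.9 CPM for meKO. Resident large peritoneal macrophage markers (6 of 6 in the table) summed on chow to 93.7 to 199 CPM for WT and 59.7 to 150 CPM for meKO. On HFD they summed to 71 to 108 CPM for WT and 73.8 to 94.5 CPM for meKO, and their part in the Plxnd1 values was not tested.

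**Figure D2:**
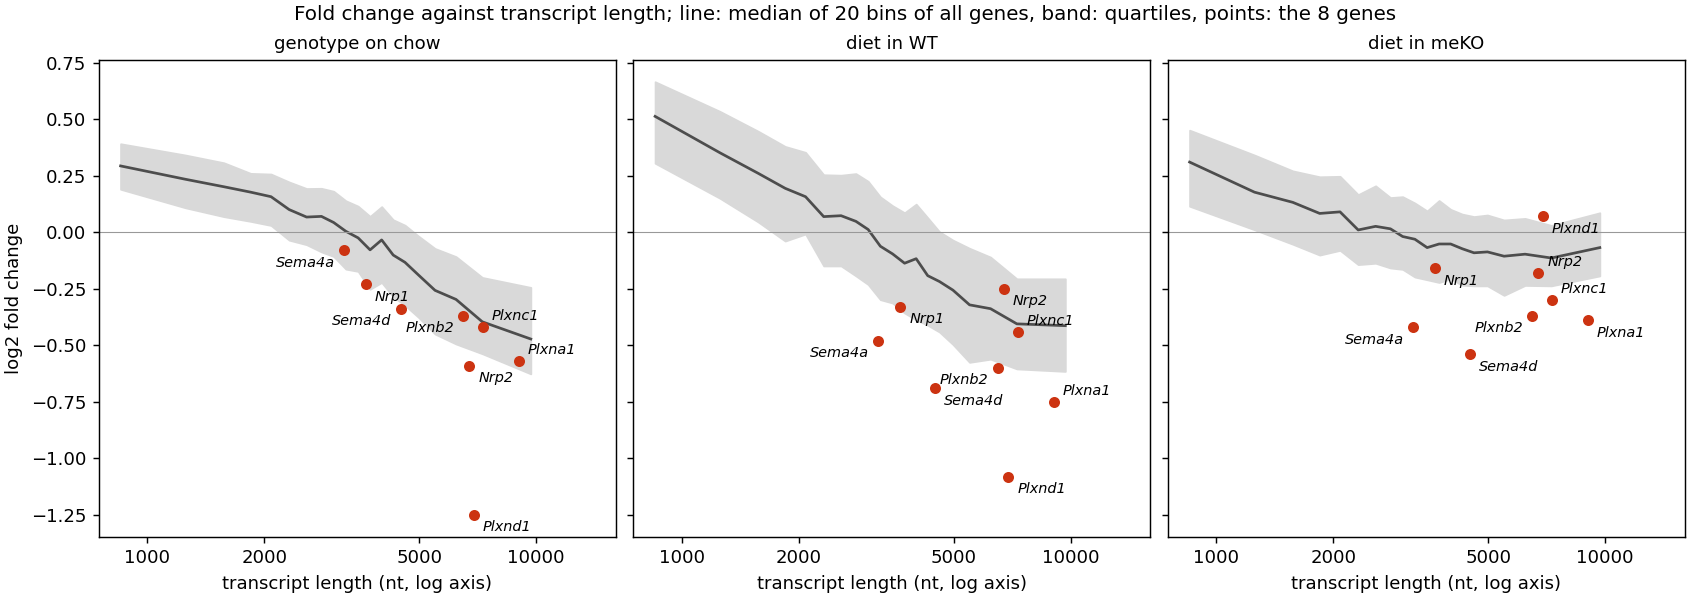
Log2 fold change (y axis) against transcript length (x axis, log scale) for genotype on chow, diet in WT and diet in meKO, with the median (line) and quartiles (band) of 20 bins of all genes with a length and the 8 genes as points. In genotype on chow the median falls from 0.293 in the shortest bin to -0.472 in the longest. Plxnd1 at -1.25, Nrp2 at -0.59 and Sema4d at -0.34 lie below the band, and Nrp1 at -0.23 lies near its lower edge. Plxnb2, Plxnc1 and Plxna1 lie within it.

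The other 7 genes were lower in meKO than in WT on chow by smaller amounts, from -0.08 for Sema4a to -0.59 for Nrp2, and in each of them the groups overlapped. The correction moved this range to -0.23 to 0.04. Without WT chow replicates 1 and 2 together, 5 of the 7 were no longer below 0, with Plxna1 at 0, Plxnb2 at 0.10, Sema4d at 0.11, Nrp1 at 0.20 and Nrp2 at 0.04. Voom with quality weights called 7 of the 8 lower, all but Sema4a, with adjusted p from 0.00117 to 0.0468, and this too is a description. The share of all genes that voom called is not given here, so nothing is read from this count. In the bins of genes of similar length the median of all genes was already -0.297 at 6222.5 nt and -0.396 at 7271 nt, so Plxnb2 at -0.37 and Plxnc1 at -0.42 were near the typical value for transcripts of their size. Nrp2 at -0.59 was below the lower quartile of both bins, -0.494 and -0.537. Sema4d at -0.34 was likewise below the lower quartiles of the bins next to its length, -0.285 at 4289.5 nt and -0.323 at 4599 nt. WT chow replicate 2 had the highest value of 7 of the 8 genes, the exception being Sema4a.

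On HFD the genotypes could be compared with a test for all 8 genes, and none of the 8 was called by edgeR, against 0.081% of all genes. None had an unadjusted p under 0.05, where 4.56% of all genes did, and DESeq2 and voom with library quality weights called 0 as well. After the length and GC correction 1 of the 8 had an unadjusted edgeR p under 0.05, against 6.37% of all genes, and 0 were called. Without the correction all 8 estimates were below 0, with a median of -0.16 beside 0.02 over all genes. For Plxnd1 the difference was -0.10 ± 0.20, with a 95% interval of -0.54 to 0.33 (adjusted p = 0.999). The -1.25 fitted on chow lies outside this interval, which is a description only, since that value chose the gene. The difference between those 2 effects, the genotype by diet interaction, was 1.15 ± 0.28 for Plxnd1, given as a description because the chow libraries chose the gene, and 0.76 ± 0.26 after correction. By edgeR 0 of 8 genes were called for the interaction, against 0.0162% of all genes, and Plxnd1 was the gene at an unadjusted p under 0.05, where 6.13% of all genes were. DESeq2 called 0 of 8, and voom with library quality weights called 1, Plxnd1.

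Nrp2, a co-receptor for Sema3f and for the lymphatic growth factor Vegfc, had the largest estimate between genotypes on HFD. It stood at 46.4, 47.2 and 43.1 CPM in WT HFD and at 31, 37 and 27.6 CPM in meKO HFD. All 3 meKO libraries were below all 3 WT libraries. The difference was -0.52 ± 0.24 with a 95% interval of -1.04 to 0, and it did not pass the test (edgeR adjusted p = 0.999, and 0.0787 to 1 over the alternatives). Plxna1 was the other gene whose groups did not overlap here, at 99.7, 110 and 89.5 CPM in WT HFD against 88.3, 83.5 and 87.4 in meKO HFD, a difference of -0.21 ± 0.18. Groups that do not overlap in the lower direction were found for 4.85% of all genes. After correction Nrp2 stayed apart, at 48.3, 47.9 and 49.3 CPM against 31.7, 43.5 and 31.1 CPM, and Plxna1 did not. The corrected share of all genes was 6.37%.

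Several of these genes were called lower on HFD by edgeR, and none of the calls on plexins held after the length correction. In WT, 4 of the 8 genes were called lower on HFD than on chow, namely Plxnd1 as a description and 3 of the 7 that could be tested, against 11.8% of all genes. Among genes of at least 6000 nt the share called lower was 29.9%. The median over the 8 genes was -0.54, beside -0.03 over all genes. After the correction 0 of the 8 were called by edgeR, with 2 at an unadjusted p under 0.05 (31.6% of all genes) and 5.63% of all genes called lower. Without WT chow replicate 1 the count was 0, and without replicates 1 and 2 together it was 0. It was 1 without WT chow replicate 2, WT HFD replicate 1 or WT HFD replicate 3, and 2 without WT HFD replicate 2, meKO chow replicate 1 or meKO HFD replicate 3. Where the count was 1 the gene was Plxnd1, which is a description. Without WT HFD replicate 2 or meKO chow replicate 1 the genes were Plxnd1 and Plxna1. The share of all genes called with libraries left out is not given, so nothing is read from these leave-out counts.

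Plxna1, the receptor partner of neuropilins that also pairs with the myeloid receptor Trem2, stood in WT at 172, 219 and 113 CPM on chow and at 99.7, 110 and 89.5 CPM on HFD. It fell by 0.75 ± 0.18 on the log2 scale (edgeR adjusted p = 0.0198). WT chow replicate 3, the library of that group without the length trend, lay just above the HFD libraries. Corrected values were 115, 136 and 117 CPM against 107, 111 and 110 CPM, a difference of -0.17 ± 0.11 (adjusted p = 0.309).

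Plxnb2, a receptor for Sema4d and other class 4 semaphorins, stood in WT at 328, 380 and 223 CPM on chow and at 208, 233 and 174 CPM on HFD. Here the groups overlapped, since WT chow replicate 3 lay below WT HFD replicate 2. The fall was by 0.60 ± 0.20 (edgeR adjusted p = 0.0497), and -0.10 ± 0.09 after correction (adjusted p = 0.508). Plxnc1, the receptor of the GPI-anchored Sema7a, was at 162, 207 and 135 CPM in WT chow and 137, 128 and 107 CPM in WT HFD. Its difference of -0.44 ± 0.15 missed the threshold (adjusted p = 0.0512) and was -0.06 ± 0.12 after correction. The Plxnd1 difference between diets in WT was -1.08 ± 0.20 and -0.52 ± 0.18 after correction, both as a description.

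In meKO none of the 8 genes was called between the diets by edgeR, against 0.105% of all genes. Sema4d was the gene with an unadjusted p under 0.05, where 15.9% of all genes had one, and DESeq2 and voom called 0. After the length and GC correction 4 of the 8 had an unadjusted edgeR p under 0.05, against 18.7% of all genes, and 0 were called. Without the correction Plxnd1 differed by 0.07 ± 0.20 (95% interval -0.36 to 0.50), and this too is a description. Plxna1 stood at 116, 125 and 98.5 CPM in meKO chow and at 88.3, 83.5 and 87.4 CPM in meKO HFD, groups that did not overlap, with a difference of -0.39 ± 0.18 (adjusted p = 0.318). Plxnc1 and Nrp1 were likewise lower on HFD in every library of meKO, by estimates of -0.30 ± 0.15 and -0.16 ± 0.15. Such a pattern was found in 9.38% of all genes. In none of the 3 did it hold after correction. The tests of the interaction do not show that the diet difference of the other 7 genes differed between genotypes.

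**Figure D3:**
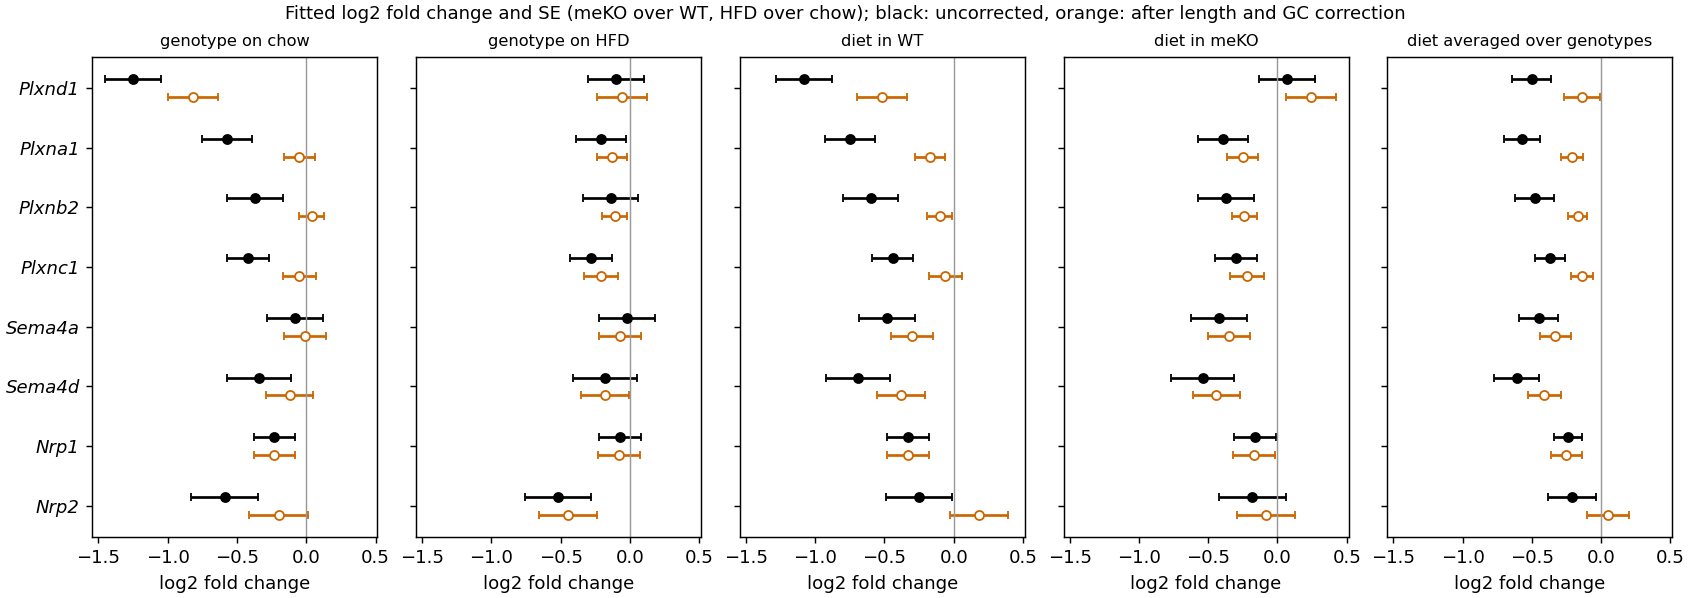
Fitted log2 fold change with SE (x axis) of the 8 genes (y axis) in 5 comparisons, meKO over WT or HFD over chow, with uncorrected values in black and values after length and GC correction in orange. Plxnd1 moves from -1.25 to -0.82 for genotype on chow and lies at -0.10 on HFD, while all but Plxnd1 and Nrp2 stay below 0 in every diet comparison with and without the correction.

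Averaged over the 2 genotypes, 6 of the 8 genes were called lower on HFD, against 15.3% of all genes and 29.7% of genes of at least 6000 nt. They were the 4 plexins, of which Plxnd1 is a description, and both semaphorins. After correction 2 of the 8 were called, Sema4a and Sema4d, against 11.2% of all genes. The plexin estimates were then -0.21 ± 0.08 for Plxna1 (edgeR adjusted p = 0.0655), -0.17 ± 0.07 for Plxnb2 (0.0821) and -0.14 ± 0.08 for Plxnc1 (0.233), where they had been -0.57, -0.48 and -0.37. Without WT chow replicates 1 and 2 together 0 of the 8 were called by edgeR. Leaving out WT chow replicate 2 left 2 calls, Plxna1 and Sema4d. Leaving out WT HFD replicate 3 left 3, the same genes and Plxnd1, which is a description. Nothing is read from these leave-out counts either, as no share of all genes is given for them.

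Sema4d, a membrane ligand of plexin B receptors that is also known from lymphocytes, stood in WT at 175, 210 and 124 CPM on chow and at 113, 119 and 82.8 CPM on HFD. All 3 WT libraries on HFD were below those on chow, as for 19.9% of all genes. In meKO it stood at 130, 102 and 170 CPM on chow and at 113, 72 and 91.5 CPM on HFD, where replicate 1 lay above the lowest chow library. The fall averaged over genotypes was by 0.61 ± 0.16 (edgeR adjusted p = 0.0152) and by 0.41 ± 0.12 after correction (0.0291). In WT alone it was by 0.69 ± 0.23 (0.0452), and the corrected value was -0.38 ± 0.17 (0.147). The averaged call held when any single library was left out, with values from -0.70 to -0.51. Without WT chow replicates 1 and 2 together the value was -0.39 (adjusted p = 0.216).

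Sema4a, a ligand known from dendritic cells and from co-stimulation of T cells, had the shortest transcript of the 8 genes, and its highest value was not in WT chow replicate 1 or 2. In WT it stood at 46.3, 41.4 and 42.5 CPM on chow and at 32.1, 34.2 and 27.2 CPM on HFD. The 3 WT chow libraries agreed closely and none overlapped with HFD. In meKO it stood at 47.2, 35 and 41 CPM on chow and at 43, 22.5 and 26.4 CPM on HFD, where replicate 1 was at the level of chow. It fell by 0.45 ± 0.14 averaged over genotypes (edgeR adjusted p = 0.0295) and by 0.33 ± 0.11 after correction (0.0409). The call was lost when any of 8 single libraries was left out, the exceptions being WT chow replicate 3, WT HFD replicate 2, meKO chow replicate 2 and meKO HFD replicate 1, with adjusted p up to 0.0806. Without WT chow replicates 1 and 2 together the value was -0.43 (0.18). Within WT the difference of -0.48 ± 0.20 did not pass (adjusted p = 0.0913).

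Marker sums of B cells and dendritic cells, which can also express class 4 semaphorins, were lower on HFD in WT. B cell markers (5 of 7 in the table, with Pax5 and Ebf1 not among them) summed to 106 to 163 CPM in WT chow and 51.9 to 87.2 CPM in WT HFD, and to 72.2 to 159 CPM in meKO chow and 55.5 to 110 CPM in meKO HFD. Dendritic cell markers (6 of 6) summed to 31.3 to 46.7 CPM in WT chow and 15.9 to 24.3 CPM in WT HFD. In meKO they overlapped, at 22.1 to 43.9 and 23.4 to 35.8 CPM. T and NK cell markers (8 of 8) overlapped in WT, at 16.9 to 29.7 and 18.9 to 27.3 CPM. The part of these cells in the Sema4a and Sema4d values was not tested.

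Nrp1, the co-receptor of Sema3a and Vegfa, was not called by edgeR in any tested comparison with all libraries. Voom with quality weights called it for diet in WT (-0.41, adjusted p = 0.00408) and averaged over genotypes (-0.29, 0.00519), and so did edgeR without WT chow replicate 3 (-0.49, 0.00494, and -0.33, 0.00418). These were 2 of 21 alternatives in WT and 2 of 20 averaged. Without WT chow replicates 1 and 2 together, Nrp1 differed by 0.10 in WT and by -0.03 averaged. In WT it stood at 459, 574 and 340 CPM on chow and 366, 383 and 346 CPM on HFD. In meKO it stood at 381, 401 and 387 CPM on chow and 368, 330 and 345 CPM on HFD. Outside WT chow its 9 libraries kept within 330 to 401 CPM. The averaged diet difference was -0.24 ± 0.10 (edgeR adjusted p = 0.0863) and the length correction hardly moved it, to -0.25 ± 0.11. Nrp2 stood at 53.8, 73.9 and 35 CPM in WT chow and at 37.5, 45.6 and 25 CPM in meKO chow, beside the HFD values given above. Its diet difference averaged over genotypes was -0.21 ± 0.17 (adjusted p = 0.349), and 0.05 ± 0.15 after correction, so the sign depended on the correction.

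Of 31 plexins, semaphorins and neuropilins looked for, 19 were in the table. The other 11 were all at low levels, with Sema4b the highest at 2.49 RPKM on average and none of the rest above 1.13 RPKM. Plexins were represented by 8 of 9 genes, class 3 semaphorins by Sema3a and Sema3c, 2 of 7, and transmembrane and GPI-anchored semaphorins by 7 of 13. All 7 of the last group had diet estimates below 0 in WT and in meKO. Averaged over genotypes 5 of the 7 were called lower, against 15.3% of all genes, with a median of -0.61. After correction 3 of the 7 were, against 11.2%, with a median of -0.41. Over all genes these medians were -0.03 and -0.01. Sema4a and Sema4d are 2 of the 7.

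Sema4b, a relative of Sema4a and Sema4d, stood in WT at 11.3, 14.8 and 11.1 CPM on chow and at 6.63, 9.02 and 6.86 CPM on HFD. In meKO it stood at 11.4, 10.2 and 13.7 CPM on chow and at 6.83, 6.56 and 9.77 CPM on HFD. All 6 HFD libraries were below all 6 chow libraries, as for 2.77% of all genes in this direction. After correction this full separation was lost, with the highest meKO HFD library at 10.4 CPM and the lowest WT chow library at 9.37 CPM. It fell by 0.67 ± 0.14 averaged over genotypes (edgeR adjusted p = 0.00724) and by 0.47 after correction (0.0188). Sema6b and Sema6d, semaphorins of class 6 that bind A-type plexins, were also called lower, by 0.46 ± 0.16 (0.0407) and 0.61 ± 0.21 (0.0452), and neither was called after correction (0.111 and 0.178). The Sema6b call was lost with 8 and the Sema6d call with 10 of the 12 libraries left out singly. The Sema4b call held with each single library left out, and without WT chow replicates 1 and 2 together its value was -0.59 (0.0755).

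Sema3a, the secreted ligand of Nrp1 with A-type plexins, went the opposite way at a low level. In WT it stood at 0.679, 1.24 and 0.529 CPM on chow and at 2.17, 1.82 and 2.05 CPM on HFD. In meKO it stood at 1.15, 0.733 and 0.276 CPM on chow and at 1.28, 3.13 and 3.22 CPM on HFD. All 6 HFD libraries were above all 6 chow libraries, as for 2.99% of all genes in this direction. It rose by 1.54 ± 0.32 averaged over genotypes (edgeR adjusted p = 0.00785), and by 1.64 after correction (0.00642), on 8 to 82 counts per library. The call held with each single library left out, and without WT chow replicates 1 and 2 together the value was 1.85 (0.0529). Markers of mesothelium and fibroblasts (8 of 8 in the table) summed to 50.1 to 89.6 CPM in WT chow and 90.9 to 136 in WT HFD, and to 49.6 to 94.5 CPM in meKO chow and 109 to 135 in meKO HFD. Within each genotype this sum was higher on HFD in every library, and its part in the Sema3a values was not tested.

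**Figure D4:**
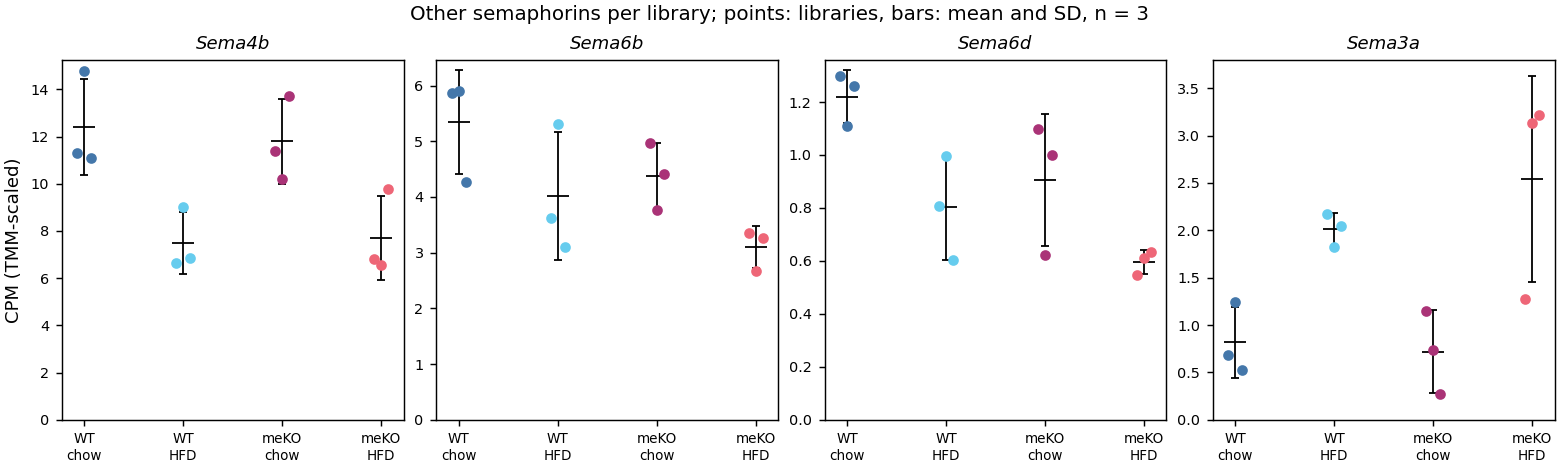
CPM (y axis, TMM-scaled, from 0) of Sema4b, Sema6b, Sema6d and Sema3a in the 4 groups (x axis), where points are single libraries and bars the mean and SD (n = 3). Sema4b lies at 6.56 to 9.77 CPM in the HFD libraries and at 10.2 to 14.8 CPM in the chow libraries, and Sema3a lies higher on HFD, at 1.28 to 3.22 CPM against 0.276 to 1.24 CPM.

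Besides the 8 genes, 61 genes of the wider pathway were measured. Between the diets in WT, 16 of the 61 were called by edgeR, 7 higher and 9 lower, against 21.3% of all genes, with a median of -0.19. Averaged over genotypes 21 were called, 10 higher and 11 lower, against 30.2% of all genes, with a median of 0.01. After correction 17 were called, against 23.6%. Leaving out replicate 1 of WT chow gave 0 calls in WT, as did leaving out replicate 3 of WT HFD. Without replicate 2 of WT chow 1 was called, and likewise 1 without replicate 1 of WT HFD. The averaged count was 13 without WT chow replicate 2, WT HFD replicate 3 or meKO chow replicate 3, and both counts were 0 without WT chow replicates 1 and 2 together. In meKO alone 0 were called, with 16 at an unadjusted p under 0.05 (15.9% of all genes), while DESeq2 called 2 and voom 4. Between genotypes on HFD 0 were called, with 2 at an unadjusted p under 0.05 (4.56% of all genes) and 0 by DESeq2 and voom. For the interaction 0 were called, with 9 at an unadjusted p under 0.05 (6.13% of all genes), 0 by DESeq2 and 2 by voom. The shares of all genes called by DESeq2, by voom or with libraries left out are not given, so nothing is read from those counts.

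The pathway genes named here are those with the smallest p among those called for diet in WT or averaged over genotypes. Limk1, a kinase that inactivates the actin-severing protein cofilin, stood in WT at 23, 20.5 and 20.5 CPM on chow and at 11, 12.4 and 14.2 CPM on HFD, a fall by 0.77 ± 0.17 (edgeR adjusted p = 0.0139, and 0.0234 after correction). Its relative Limk2 fell by 0.52 ± 0.10 averaged over genotypes (0.00694). Cfl1, which encodes cofilin itself, rose by 0.55 ± 0.13 in WT (0.0173), from 1070, 1040 and 1230 CPM to 1470, 1620 and 1800 CPM. Sh3bp1, a GTPase-activating protein for Rac that binds Plxnd1, fell by 1.0 ± 0.22 in WT (0.0153), from 37.2, 33.9 and 30.4 CPM to 15.9, 20.1 and 14.8 CPM.

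Rras2, a Ras-family GTPase of the kind on which plexins act, rose by 0.60 ± 0.12 averaged over genotypes (edgeR adjusted p = 0.00622). Vegfb, a growth factor that binds Nrp1, fell by 0.58 ± 0.14 in WT (0.0187), from 16.6, 15.1 and 17 CPM to 10.9, 12.3 and 9.38 CPM. The calls named for Limk1, Limk2, Cfl1, Sh3bp1, Rras2 and Vegfb also held after the correction, with adjusted p from 0.00459 to 0.0234. In WT the Limk1 and Cfl1 calls were each lost with 3 of the 12 libraries left out singly, and the Sh3bp1 and Vegfb calls with 4. The averaged Limk2 and Rras2 calls held with each single library left out. Of the co-receptors and other semaphorin receptors, 10 of 15 were in the table and 4 were called higher, against 14.9% of all genes, and 0 lower averaged over genotypes.

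Genes most like Plxnd1 across the 12 libraries, by Pearson's r of log2 CPM, included Vps13c (r = 0.935), Prrc2b (0.931), Kat6a (0.928) and Prrc2a (0.926). Spearman's rho was 0.755 to 0.839 for these 4. Their transcripts have 6888 to 11527 nt, and the libraries share the length trend, so these values carry it. After correction the list was Eno2 (0.910), Gm19579 (0.909), Egr2 (0.882), Kat6a (0.853) and Klra17 (0.851), with Kat6a in both lists. Gm19579 has no transcript length, so its own values stayed uncorrected. The other 7 genes had r with Plxnd1 from 0.447 for Sema4a to 0.793 for Plxna1 before the correction and from -0.074 for Plxnb2 to 0.322 for Plxna1 after it.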

How the data were processed

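RNA of 12 macrophage libraries, 3 in each of 4 groups taken from the labels, had been extracted with Trizol and prepared with Illumina's TruSeq protocol, per the labels. The authors deposited whole-number counts per gene. Their processing notes name mm10 and DESeq2, and the aligner, counter and strand setting are not given in the sources used here. No column of another sample was present, and no 2 replicates looked like a single library (chi-square per degree of freedom at least 16.9 over 12 pairs).

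Counts were fitted with edgeR 4.0.16 in R 4.3.3 (TMM factors, filterByExpr, robust quasi-likelihood F test, 4 group means over all 12 libraries, two-sided), with Benjamini-Hochberg adjustment over all 12339 genes and a threshold of 0.05. CPM are TMM-scaled. RPKM use the longest GENCODE M21 transcript, which 93.5% of genes have. The correction fits splines with 4 degrees of freedom to length and GC content in each library and enters edgeR as offsets. Genes without a length stayed uncorrected. Alternatives were other scalings, filters, DESeq2 1.42.0, limma 3.58.1 voom with library quality weights, the correction, the 2 groups alone, and libraries left out. The fit was tested on simulated data. All 8 genes were named, with every family member found, up to 4 called pathway genes per comparison by smallest p, the 5 genes most like Plxnd1 (1 result is not reported here), Prkce and Lyz2. The members and lists were chosen with earlier results of these data known.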

Additional observations from a re-analysis of the deposited data

How the results depend on the processing

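No paired analysis was possible because the labels carry no replicate numbers that tie libraries across groups. The counts of calls given below are by edgeR unless named otherwise, and the causes of the shifts were not tested. Counts over the 8 genes include Plxnd1, which is a description wherever chow libraries are used. No share of all genes is given for DESeq2, for voom or for fits with libraries left out, so nothing is read from their counts. Of the 8 genes, 4 were called for diet in WT, against 7 with voom and quality weights, 0 after length and GC correction, 0 without WT chow replicates 1 and 2 together (a choice made after seeing the data, which leaves 1 library in that group) and 0 to 6 when single libraries were left out. Averaged over genotypes 6 were called, against 2 after correction, 0 without those 2 libraries and 2 to 7 with single libraries left out. In meKO the 0 became 1 only without meKO HFD replicate 1 (range 0 to 1), and for the interaction the 0 became 1 with voom. Of the 61 pathway genes, 16 were called in WT, against 34 with voom, 0 without the 2 libraries and 0 to 24 with single libraries left out. Averaged over genotypes 21 were called, against 32 with voom, 0 without the 2 libraries and 13 to 27 with single libraries left out. In meKO the 0 became 2 with DESeq2, 4 with voom and 0 to 2 with single libraries left out, and for the interaction 2 with voom. The Plxnd1 difference between genotypes on chow passed in 9 of 21 alternatives. The sign turned for the following estimates. Between genotypes on chow without the 2 libraries, Plxnb2 went from -0.37 to 0.10, Sema4d from -0.34 to 0.11, Nrp1 from -0.23 to 0.20 and Nrp2 from -0.59 to 0.04. Plxnd1 between genotypes on HFD became 0.16 with voom, 0.01 without WT HFD replicate 3 and 0.02 without meKO HFD replicate 2 (single libraries left out gave -0.28 to 0.02). Sema4a there became 0.05 without WT HFD replicate 2, 0.15 without meKO HFD replicate 2 and 0.07 without meKO HFD replicate 3 (-0.35 to 0.15). Nrp2 between diets in WT became 0.18 after correction, 0.05 without WT chow replicate 2 (-0.48 to 0.05) and 0.38 without the 2 libraries, averaged it became 0.05 and 0.10 under the first and last of these, and in meKO 0.02 without meKO chow replicate 2 (-0.38 to 0.02). Nrp1 in WT became 0.10 without the 2 libraries. Other scalings and low-count filters turned no sign of the 8 genes. Depth was not limiting for the 8 genes, at 590 counts or more per library.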

Other observations

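Plxna4os1, a transcript annotated on the strand opposite to the plexin gene Plxna4 (chr6:32511073-32515576), had step-like values that follow no group. It stood at 1.36 CPM in WT chow replicate 3, 1.20 CPM in WT HFD replicate 2 and 1.42 CPM in meKO chow replicate 1, and at 7.38 to 27.5 CPM in the other 9 libraries. Plxna4 itself stood at 1.07 to 3.23 CPM. The gene was chosen after its values were seen.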
